A study of Mus musculus with 6 samples.

Results

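The genes examined here encode the platelet-derived growth factor (PDGF) ligands and their receptors: the ligand genes Pdgfa, Pdgfb, Pdgfc and Pdgfd, the receptor genes Pdgfra and Pdgfrb, and the receptor-like gene Pdgfrl. They were taken by symbol from the probe sets that carry exactly 1 gene symbol, with the brightest probe set kept per gene, and are 7 of 22180 genes measured. Each of the 7 had 1 probe set, so no choice between probe sets was made for them. The RNA came from cultured myoepithelial cells of the exorbital lacrimal gland of female mice, the contractile cells that wrap the secretory acini. The TSP1 null group (3 arrays) lacks thrombospondin-1, a glycoprotein of the extracellular matrix and the product of Thbs1, and the wild-type group (3 arrays) is C57BL/6J. Both groups were grown for 2 to 3 weeks in medium with serum and received no treatment. The age of the mice and the strain background of the null mice are not given in these sources. The study treats the null mouse as a dry eye disease model, and the question is what distinguishes its myoepithelial cells from healthy ones. Arrays of a group are labelled biological replicates without a statement on whether each had its own mouse or culture, so the spread behind each p-value may be technical.

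PDGF ligands are secreted dimers of A, B, C or D chains. They bind the receptor kinases PDGFR-alpha and PDGFR-beta on the cell surface, which pair, phosphorylate one another and recruit adaptors that lead to growth, migration and matrix synthesis. The A and B chains are cut by furin-type convertases inside the cell, whereas the C and D chains are secreted in a latent form and cut outside it by serine proteases. In many tissues epithelium, endothelium, platelets and macrophages supply ligand, and fibroblasts, pericytes and smooth muscle cells carry the receptors.

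Values are deposited log2 signals, so a difference of 1 is a 2-fold difference, and they are not comparable in level between genes because each probe set responds differently. The array medians lay between 5.25 and 5.32 and the 75th percentiles between 7.31 and 7.35. Thbs1 averaged 12.92 ± 0.17 against 13.60 ± 0.13 (SD, n = 3) in null and wild type, a difference of -0.68 (limma adjusted p = 0.25 over all genes). The position of its probes relative to the disrupted part is unknown here, so Thbs1 is a weak check of the labels. Of 8 contractile markers of myoepithelial and smooth muscle cells all 8 averaged above the array median, and Acta2 lay between 13.85 and 14.01. Of 6 basal epithelial markers 4 did. Trp63, which defines basal cells, was at 4.47 to 4.93, below the array medians, and Krt14 at 4.93 to 6.35. Of 7 acinar markers 1 averaged above it. All 15 macrophage markers and all 12 fibroblast markers averaged above it as well. As a rough guide to the background, 13135 of 22180 genes were kept when dim genes were left out. A count such as 4 of 6 therefore does not show that a cell type was present. In such bulk samples, fewer cells of a type and less RNA per cell cannot be told apart.

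Over all genes, 0 of 22180 (0%) passed a limma adjusted p of 0.05, 2341 (10.6%) had an unadjusted p under 0.05, and in 3506 (15.8%) the groups did not overlap, with all null arrays higher in 2231 (10.1%) and lower in 1275 (5.75%). Of the 7 PDGF genes 0 passed. Pdgfrb alone had an unadjusted p under 0.05 and groups that did not overlap, and 1 gene of 7 is a share of 14.3%, near both backgrounds. Differences were positive for Pdgfa, Pdgfc, Pdgfra and Pdgfrb and negative for Pdgfb, Pdgfd and Pdgfrl. Their median was 0.10, against 0.02 over all genes, of which 55.1% were positive.

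**Figure D1:**
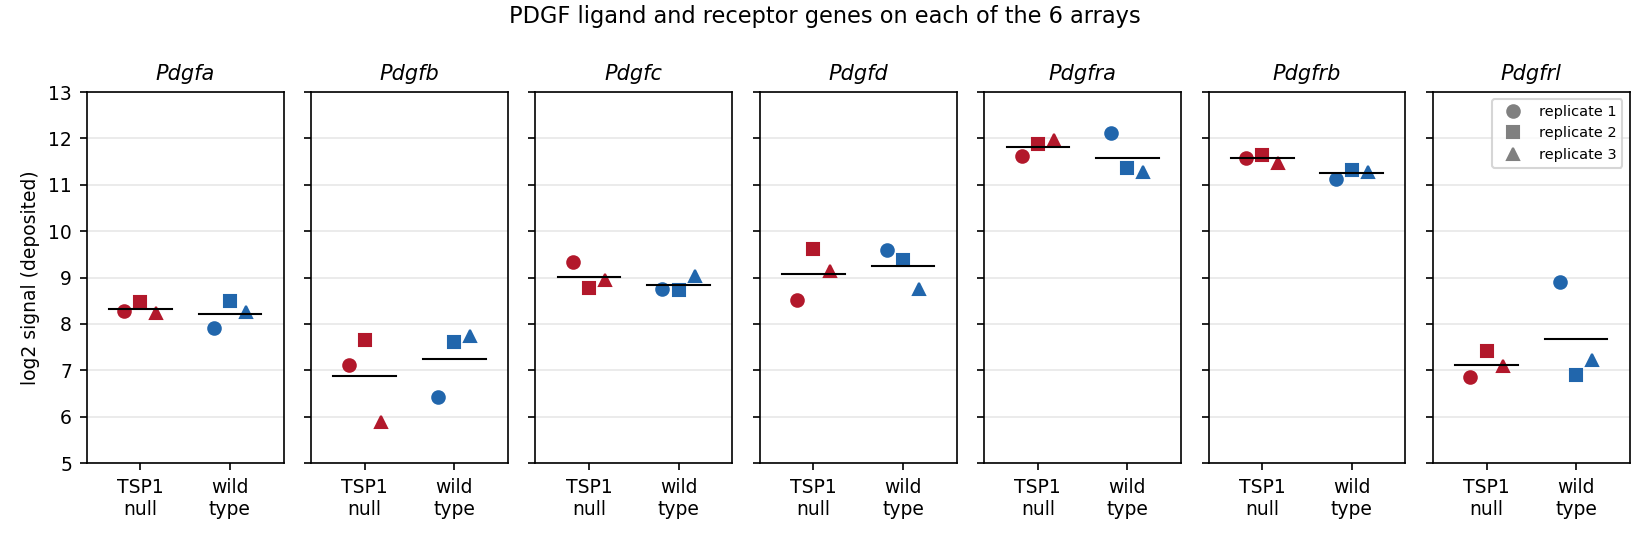
Deposited log2 signal (y axis) of each PDGF ligand and receptor gene on the 3 TSP1 null (red) and 3 wild-type (blue) arrays, with the replicate number as the symbol and the group mean as a bar. The 2 groups separate only for Pdgfrb, and the first wild-type array stands alone for Pdgfrl at 8.91.

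Pdgfrb encodes PDGFR-beta, the receptor for the B and D chains that marks pericytes and many fibroblasts. Its signals were 11.58, 11.64 and 11.48 in the null arrays against 11.13, 11.32 and 11.28 in the wild-type arrays. Every null array thus lay above every wild-type array, with ranges of 0.16 and 0.18 within the groups. The means were 11.57 ± 0.08 and 11.24 ± 0.10 (SD, n = 3), a difference of 0.32 (SE 0.11, 95% interval 0.07 to 0.58), or 1.25-fold. With limma the unadjusted p was 0.0197, and the adjusted p over all genes was 0.391, so the difference did not pass. A two-sided exact permutation test gave p = 0.1, its lower limit with 3 arrays per group. Its spread within the groups was small: the residual SD of 0.0909 was at the 12.1 percentile of all genes, whose median was 0.171. With 1 array left out, the difference ran from 0.27 without the first wild-type array to 0.37 without the third null array. Its unadjusted limma p was 0.052 without the first null array, 0.061 without the second and 0.057 without the first wild-type array. With the mean of 15 macrophage markers as a covariate the difference was 0.44. The limma adjusted p ran from 0.257 to 0.843 over the 14 alternatives.

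Markers of pericytes other than Pdgfrb overlapped between the groups as a list. Their mean level was 6.36 to 6.95 in the null arrays against 6.53 to 6.85 in the wild-type arrays, and 4 of 10 differences were positive. Notch3, a receptor of mural cells, had the largest positive one at 0.73 (SE 0.23, adjusted p = 0.379). Its null arrays (7.56, 7.98 and 7.09) all lay above the wild-type arrays (6.54, 7.03 and 6.88), by a narrow gap. That held for 1 of the 10 markers (10.0%), near the 10.1% of all genes. Rgs5, a regulator of G protein signalling that defines pericytes, had -0.23 (SE 0.59). Among fibroblast markers the collagen genes Col1a1 (0.54, SE 0.15), Col1a2 (0.51, SE 0.11) and Col3a1 (1.03, SE 0.27) also had null arrays that all lay above the wild-type arrays. Null arrays all above the wild-type arrays were thus seen for 3 of the 12 fibroblast markers, against 10.1% of all genes. Over the 12 markers 7 differences were positive, near the 55.1% of all genes. The 5 negative ones were Lum (-1.05, SE 0.99), Dpt (-0.40, SE 0.78), Pi16 (-0.32), Pdpn (-0.15) and Thy1 (-0.15). The part of either cell type in the Pdgfrb difference was not tested.

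Pdgfra encodes PDGFR-alpha, which binds the A, B and C chains and is the common surface marker of fibroblasts. It measured 11.63, 11.87 and 11.97 in the null arrays. The wild-type arrays read 12.11, 11.37 and 11.27. The groups overlapped because the first wild-type array was the highest of the 6, while the second and the third were the lowest. The difference was 0.24 (SE 0.23, 95% interval -0.28 to 0.77, limma adjusted p = 0.757), so a 1.71-fold higher and a 0.821-fold level both lie within its interval. Without the first wild-type array the difference was 0.51 (unadjusted p = 0.00908, limma adjusted p = 0.247), and without the third it was 0.09. With the mean of 15 macrophage markers as a covariate it was 0.02. The same first wild-type array had the highest mean level of the fibroblast markers, 10.02 against 8.82 and 9.10 in its group and 9.27 to 9.73 in the null group. The part of fibroblasts in the Pdgfra values was not tested. Both receptor genes lay above 11 on all 6 arrays, over the 75th percentile of every array.

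Pdgfrl encodes a protein related to the extracellular part of PDGFR-beta that lacks a kinase. Its signals were 6.85, 7.41 and 7.10 in the null arrays against 8.91, 6.90 and 7.23 in the wild-type arrays. A lone array, the first wild-type array, held the high value, and the other 5 lay between 6.85 and 7.41. The means were 7.12 ± 0.28 and 7.68 ± 1.08 (SD, n = 3), a difference of -0.56 (SE 0.48, 95% interval -1.67 to 0.55, limma adjusted p = 0.73). Without that array the difference was 0.06, so its sign rested on the array. The genes with the nearest profile over the 6 arrays, measured as the root mean square distance between log2 profiles centred on their means, were Tmem100 (0.0495), Fmo1 (0.113) and Lrrn3 (0.153). They read 5.78, 7.32 and 6.63 on the first wild-type array and at most 4.22, 5.92 and 5.05 on the other 5.

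**Figure D2:**
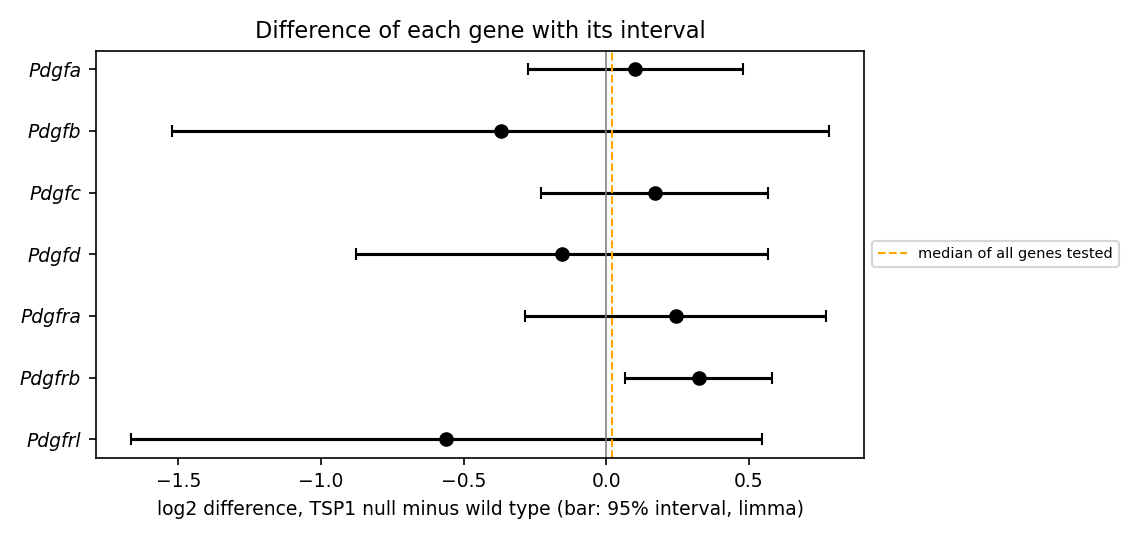
Difference in log2 signal, TSP1 null minus wild type (x axis), of each PDGF gene, with its 95% interval from limma (3 arrays per group). The interval of Pdgfrb, 0.07 to 0.58, leaves out 0, the other 6 include it, and the widest are those of Pdgfb and Pdgfrl.

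Among the ligands, Pdgfa, whose AA dimer acts through PDGFR-alpha alone, measured 8.28, 8.47 and 8.23 in the null arrays against 7.92, 8.50 and 8.26 in the wild-type arrays. All null values lay within the wild-type range. The difference was 0.10 (SE 0.16, limma adjusted p = 0.868), and its 95% interval of -0.27 to 0.48 spans 0.827-fold to 1.39-fold. Without the first wild-type array, the lowest of the 6 here, the difference was -0.05.

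Pdgfb, which encodes the chain that binds both receptors and recruits pericytes to vessels, was the ligand gene with the widest spread. It read 7.11, 7.66 and 5.89 in the null arrays against 6.42, 7.61 and 7.73 in the wild-type arrays. The third null array was the lowest of its group and the first wild-type array the lowest of its own, and the groups overlapped. The means were 6.88 ± 0.91 and 7.25 ± 0.73 (SD, n = 3), a difference of -0.37 (SE 0.50, 95% interval -1.52 to 0.78, limma adjusted p = 0.841). Its residual SD of 0.822 was at the 98.8 percentile of all genes. Without the third null array the difference turned to 0.13.

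Arrays with low Pdgfb were also those with lower macrophage markers. From the lowest to the highest mean level of the 15 macrophage markers, the arrays were the third null (7.64), the first null (9.38), the first wild-type (10.11), the second null (10.24), the second wild-type (10.71) and the third wild-type array (10.85). In that order Pdgfb read 5.89, 7.11, 6.42, 7.66, 7.61 and 7.73. Csf1r, the macrophage growth factor receptor of the same kinase class, read 7.44, 9.13, 9.19, 10.00, 10.77 and 10.92. The macrophage levels themselves overlapped between the groups, at 7.64 to 10.24 in the null and 10.11 to 10.85 in the wild-type arrays, and all 15 markers had negative differences, 13 of them with an unadjusted p under 0.05 (background 4.27% for lower genes). With the macrophage mean as a covariate in limma the Pdgfb difference was 0.78 (adjusted p = 0.843). Nearest in profile to Pdgfb were Itgax, an integrin of macrophages and dendritic cells (distance 0.2), Tnfrsf11a, the RANK receptor of osteoclast precursors (0.208), and Naip2, an inflammasome sensor (0.228). Of 10 markers of endothelium, another usual source of Pdgfb, 4 averaged above the array median, and their mean level was 4.93 to 5.14 in the null arrays against 5.00 to 5.44 in the wild-type arrays. Emcn and Cdh5, which define endothelial cells, were highest on the second and then the third wild-type array (6.15 and 6.09 on the third). Pdgfb was also high on those arrays. Tek and Erg went the other way, with their lowest values there: 5.73 and 6.14 for Tek, and 4.28 and 4.24 for Erg. Tek was highest on the first wild-type array at 7.74. Of 5 platelet markers 3 averaged above the array median. With 13135 of 22180 genes kept when dim genes were left out, neither this count nor the endothelial one shows that those cells were present. Pf4, a platelet chemokine, was lowest on the third null array at 5.92, as Pdgfb was, and lay between 7.99 and 8.69 on the other 5. Gp9 went the other way: it ran from 6.27 to 7.19 and was highest on the third null array. Itga2b ran from 5.42 to 5.71. Ppbp (4.38 to 4.98) and Gp6 (4.25 to 4.87) were dim. The part of macrophages, endothelium or platelets in the Pdgfb signal was not tested.

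**Figure D3:**
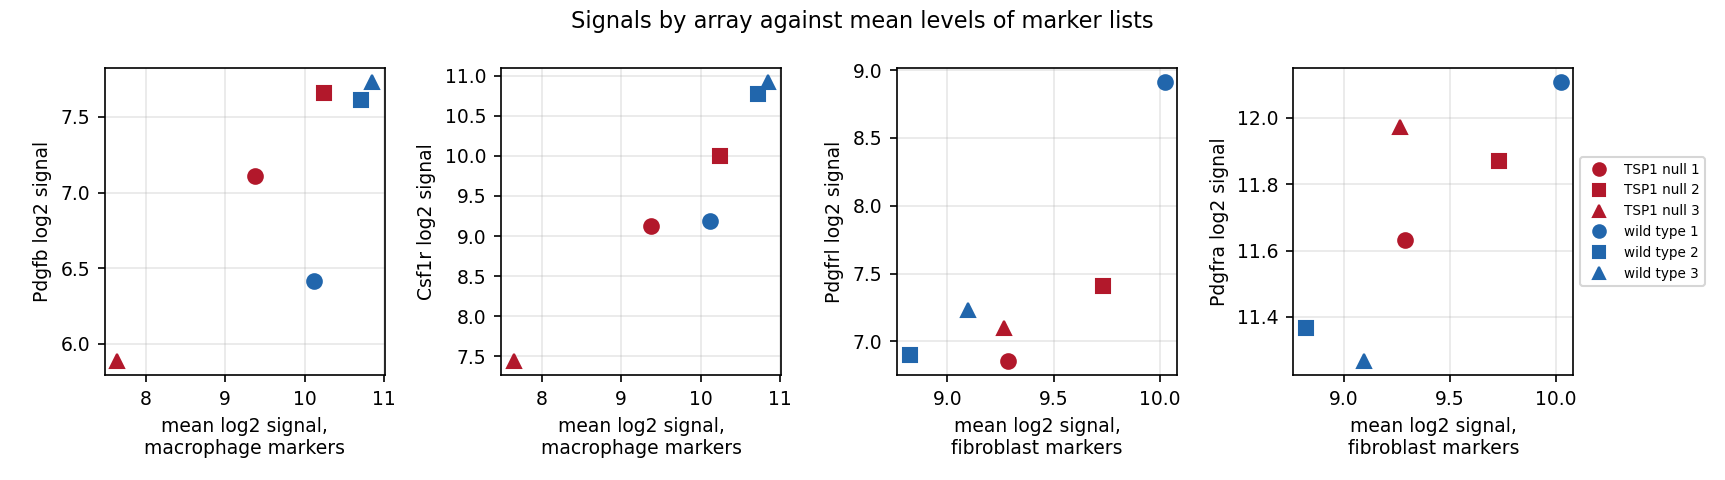
Log2 signal of Pdgfb, Csf1r, Pdgfrl and Pdgfra on each array (y axes) against the mean log2 signal of the macrophage or fibroblast markers on the same array (x axes), with group as colour and replicate as symbol. The third null array is lowest for macrophage markers (7.64), Pdgfb (5.89) and Csf1r (7.44), and the first wild-type array is highest for fibroblast markers (10.02), Pdgfrl (8.91) and Pdgfra (12.11). The pairs shown were chosen after their values were seen.

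Pdgfc, which encodes a latent ligand of PDGFR-alpha, measured 9.34, 8.77 and 8.94 in the null arrays. The wild-type arrays read 8.76, 8.74 and 9.04. The first null array was the highest, and the rest overlapped. The difference was 0.17 (SE 0.17, 95% interval -0.23 to 0.57, limma adjusted p = 0.776), or 1.13-fold, and it was 0.0087 without the first null array.

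Pdgfd, which encodes a latent ligand of PDGFR-beta, read 8.51, 9.61 and 9.14 in the null arrays against 9.59, 9.38 and 8.75 in the wild-type arrays. High and low arrays occurred in both groups, with a range of 1.10 within the null group. The difference was -0.15 (SE 0.31, 95% interval -0.88 to 0.57, limma adjusted p = 0.899). Leaving out the first null array gave 0.13, and leaving out the first wild-type array 0.02. Its nearest profiles were those of Gria3, a glutamate receptor subunit (distance 0.0893), Lmcd1, a LIM domain protein (0.129), and Dkk2, a Wnt antagonist (0.139).

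**Figure D4:**
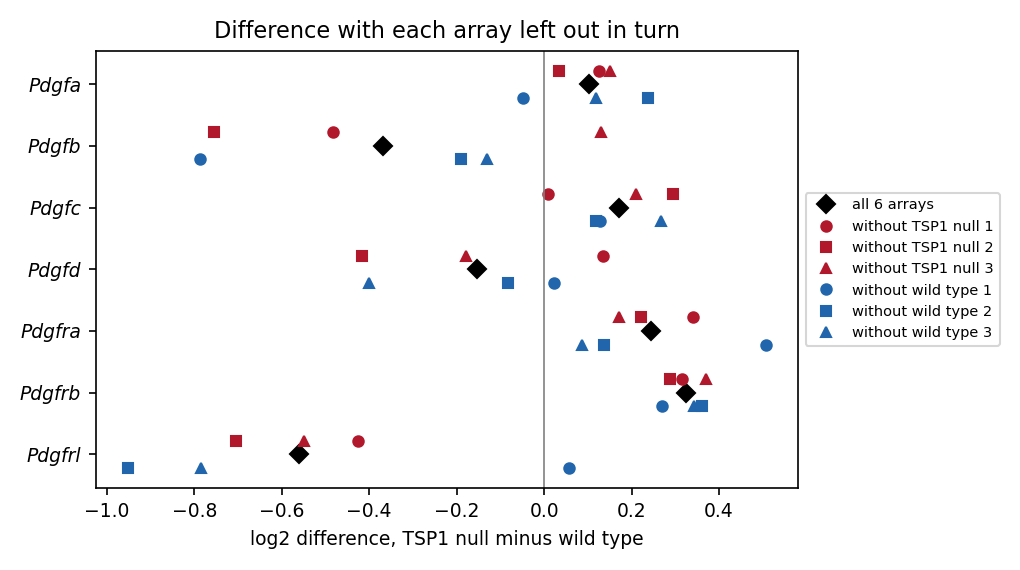
Difference in log2 signal, TSP1 null minus wild type (x axis), of each PDGF gene with all 6 arrays (diamond) and with each array left out in turn (red for null, blue for wild type, symbol for replicate). Pdgfrb stays between 0.27 and 0.37, while the differences of Pdgfa, Pdgfb, Pdgfd and Pdgfrl lie on both sides of 0.

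The first wild-type array was at an extreme of the 6 arrays for 4 of the 7 genes. It was lowest for Pdgfa and Pdgfrb and highest for Pdgfra and Pdgfrl. It was also highest for fibroblast markers. Other arrays were at extremes too: the first null array was highest for Pdgfc and lowest for Pdgfd and Pdgfrl. How often each array is an extreme over all genes was not computed, so the count of 4 is a description. The level of cell division markers, which PDGF as a mitogen can raise, was 8.84, 7.71 and 8.84 on the wild-type arrays. On the null arrays it was 8.17, 7.20 and 8.05. All 9 of those markers had negative differences, with a median of -0.61, while 55.1% of all genes had positive ones. An unadjusted limma p under 0.05 was seen for 2 of the 9 (22.2%, against 10.6% of all genes). Groups without overlap were seen for 1 (11.1%, against 15.8%). A link between these markers and PDGF was not tested.

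Other genes of the pathway were taken from 8 lists with 100 genes. Of these 91 were measured, and the rest were not used here. Among the 91, 0 passed the limma threshold over all genes. At an unadjusted p under 0.05, 17 were higher in the null group (background 6.28%) and 5 were lower (4.27%), or 24.2% together against 10.6% of all genes. Groups without overlap were seen for 26.4% of them, against 15.8% of all genes. The median difference was 0.09, against 0.02 over all genes. The lists were chosen with earlier results of these data known, so these shares are a description.

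Enzymes that release active ligand held the largest positive difference among these lists. Of 7 measured, 3 were higher and 1 was lower at an unadjusted p under 0.05 (57.1% together, against 10.6% of all genes). Groups did not overlap for 3 of the 7 (42.9%, against 15.8% of all genes). The median difference was 0.09. Pcsk6 encodes the convertase PACE4, a relative of furin. It read 10.72, 10.27 and 10.90 in the null arrays against 9.78, 8.58 and 8.93 in the wild-type arrays, so all null arrays lay above. The difference was 1.53 (SE 0.31, 2.90-fold, limma adjusted p = 0.25). It was 1.88 without the first wild-type array (limma adjusted p = 0.0742) and 1.28 without the second. With the macrophage mean as a covariate it was 1.06. Plat encodes tissue plasminogen activator, the protease that cuts the latent C chain. Its signals were 9.84, 9.44 and 10.02 in the null arrays against 9.27, 8.52 and 8.71 in the wild-type arrays, again without overlap. The difference was 0.93 (SE 0.23, 1.90-fold, limma adjusted p = 0.307). With the macrophage mean as a covariate it was 0.54. Pcsk5, another convertase, read 5.92, 6.31 and 6.00 in the null arrays against 7.05, 6.61 and 6.25 in the wild-type arrays, a difference of -0.56 (SE 0.21, limma adjusted p = 0.43), or -0.35 without the first wild-type array. Furin had a difference of 0.28 (SE 0.11), and Plau, urokinase, which cuts the latent D chain, -0.23 (SE 0.25).

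Proteins that bind the ligands or receptors gave 0 of 6 genes with an unadjusted p under 0.05, against 10.6% of all genes. Their median was -0.08. Nrp1, a co-receptor for several growth factors, measured 9.45, 10.18 and 9.41 in the null arrays against 10.09, 10.17 and 10.20 in the wild-type arrays, a difference of -0.47 (SE 0.21, limma adjusted p = 0.476). With the macrophage mean as a covariate this was -0.11, and without the second null array -0.72. Lrp1, an endocytic receptor that associates with PDGFR-beta, had null arrays all above the wild-type arrays, with a difference of 0.23 (SE 0.11), or 0.36 with the covariate. Dcn, the proteoglycan decorin, had -0.55 (SE 0.32) with overlapping groups, or -0.25 without the first null array.

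Adaptors and enzymes that dock on the activated receptors had 16 of 23 positive differences, against 55.1% of all genes, with a median of 0.12. At an unadjusted p under 0.05, 6 were higher and 2 were lower (34.8% together, against 10.6% of all genes). Pik3r2, a regulatory subunit of phosphoinositide 3-kinase, read 7.73, 7.48 and 7.59 in the null arrays against 6.98, 7.20 and 7.04 in the wild-type arrays, a difference of 0.53 (SE 0.12, limma adjusted p = 0.29). Shc1, the adaptor that links receptors to RAS, had 9.77 ± 0.07 against 9.29 ± 0.21 (SD, n = 3), a difference of 0.48. Plcg1, phospholipase C gamma, had 8.26 ± 0.03 against 7.81 ± 0.22, a difference of 0.45. In all 3 genes, which have the smallest p of the list, the null arrays lay above the wild-type arrays. Groups did not overlap for 10 of the 23 genes (43.5%, against 15.8% of all genes). The lower genes were Vav3, a guanine nucleotide exchange factor also active in leukocytes, at -1.16 (SE 0.35), and Rasa1, which switches RAS off, at -0.40 (SE 0.14). Of the RAS, MAPK and AKT relay 9 genes were measured, with a median of 0.16. Sos2, an activator of RAS, had -0.43 (SE 0.15), Map2k1, the kinase MEK1, 0.54 (SE 0.19) and Akt2 0.27 (SE 0.11), with limma adjusted p of 0.393, 0.398 and 0.462.

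**Figure D5:**
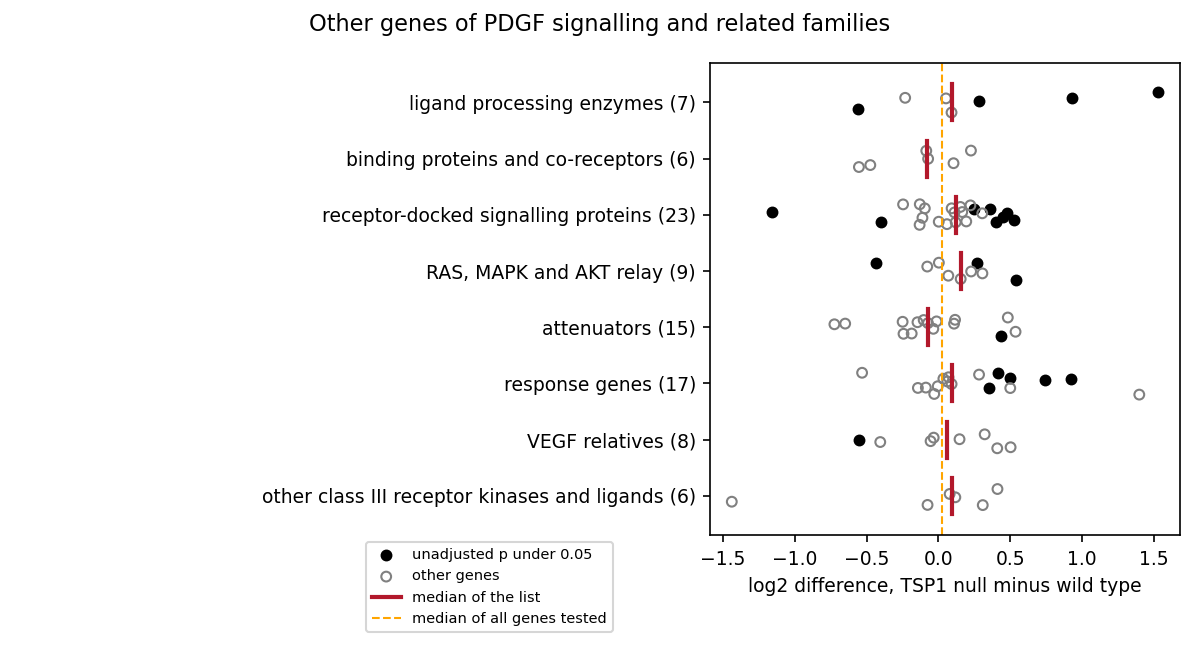
Difference in log2 signal, TSP1 null minus wild type (x axis), of the 91 measured genes in 8 lists (number measured in brackets), with filled points for an unadjusted limma p under 0.05. Medians of the lists (red bars) lie between -0.08 and 0.16, near the median of all genes (dashed line, 0.02), and Pcsk6 at 1.53 and Csf1r at -1.44 are the farthest from it.

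Attenuators of receptor signalling had a median of -0.07, with 10 of 15 differences negative. An unadjusted p under 0.05 was seen for 1 gene (6.67%, against 10.6% of all genes). That gene was Spry1, a feedback inhibitor of RAS signalling, at 0.44 (SE 0.18, limma adjusted p = 0.465), with overlapping groups. Its relative Spry2 had 0.48 (SE 0.23), or 0.048 with the macrophage mean as a covariate and 0.25 when the third null array was left out. Ptprj, a receptor phosphatase that acts on PDGFR-beta, had -0.65 (SE 0.30), or -0.0024 with that covariate and -0.41 without the third null array. Genes known to be induced by PDGF gave 5 of 17 with an unadjusted p under 0.05 (29.4%, against 10.6% of all genes). All 5 were higher in the null group, and the list median was 0.09. Klf4, a transcription factor that PDGF raises in smooth muscle cells, read 9.46, 9.15 and 9.53 in the null arrays against 8.98, 8.85 and 8.81 in the wild-type arrays, a difference of 0.50 (SE 0.13, limma adjusted p = 0.324), or 0.30 with the covariate. Ccl7, a monocyte chemokine, had 0.42 (SE 0.14) and Tnc, the matrix protein tenascin C, 0.35 (SE 0.13), both without overlap. Tnc was at 0.23 without the first wild-type array. Groups did not overlap for 3 of the 17 response genes (17.6%, near the 15.8% of all genes). Egr1, an immediate early transcription factor, had the largest difference of the list, 1.40, with an SE of 0.76. It lay at 9.79, 7.54 and 9.84 in the null and 6.78, 9.08 and 7.12 in the wild-type arrays, and it was named after its values were seen. The median of the response genes was 0.39 when the second null array was left out and -0.02 when the first wild-type array was.

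Of 8 VEGF ligands and receptors, the nearest relatives of the family, 1 had an unadjusted p under 0.05 (12.5%, against 10.6% of all genes). It was Kdr, the main VEGF receptor of endothelium, at -0.55 (SE 0.18, limma adjusted p = 0.38). It was dim, with 5.23 ± 0.26 against 5.78 ± 0.25 (SD, n = 3) in null and wild type. Vegfa, the main angiogenic ligand, had 0.50 (SE 0.22) and Vegfb 0.32 (SE 0.17). With the macrophage mean as a covariate Kdr had -0.25, Vegfa 0.23 and Vegfb 0.50, and without the first wild-type array Vegfb had 0.18. Among the receptor kinases of the class to which both PDGF receptors belong, Csf1r had -1.44 (SE 0.68, limma adjusted p = 0.516), or 0.19 with the covariate and -0.73 without the third null array. Its ligand gene Csf1 had 0.31 (SE 0.14), and Kitl, the ligand of KIT, 0.41 (SE 0.20). These were 0.19 without the first wild-type array and 0.27 without the third, respectively. In the reference gene order Csf1r is the protein-coding neighbour of Pdgfrb, and Kit and Kdr follow Pdgfra. Pdgfrb and Csf1r, though adjacent, had differences of opposite sign. Kit, at 4.21 to 4.60, lay below the array median on all 6 arrays.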

How the data were processed

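Per the labels' protocols, 150 ng of total RNA per array was labelled with biotin. The values deposited by the authors are normalized log2 signals, for 41345 probe sets on 6 arrays. The submitters' processing notes name RMA and Partek, with versions and genome build not given in the sources used here. RMA compresses differences of dim probe sets. Groups and replicate numbers came from the sample titles. The platform annotation gave 23521 probe sets exactly 1 symbol, and 22180 genes remained with the brightest probe set each. The groups were compared with limma 3.58.1 in R 4.3.3 (lmFit, eBayes, two-sided), signed as null minus wild type. P-values were adjusted over all genes by Benjamini and Hochberg, with a threshold of 0.05 and no filter. The procedure was tested on simulated data.

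The PDGF genes, the lists (188 entries, 173 measured) and the rules were chosen with earlier results of these data known. Named beside the PDGF genes are Thbs1, the 3 genes of smallest p in each pathway list, and the 3 nearest profiles of the 3 PDGF genes with the largest SD. Furin, Plau, Vav3, Rasa1, Egr1, Kit and the marker genes were named after their values were seen. Alternatives were quantile normalization, median centring, leaving out dim genes, averaging probe sets, array weights, a robust prior with an intensity trend, a block for the replicate number, a covariate for the macrophage list mean, and leaving out each array. Coordinates are not given because the build is not named, and the reference table (GRCm38.p6) served for names and gene order.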

Additional observations from a re-analysis of the deposited data

How the results depend on the processing

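Over 14 alternatives per gene, 0 of the 7 PDGF genes passed the limma threshold, and the differences of Pdgfc, Pdgfra and Pdgfrb kept their sign in all 14. Several of these could not change a difference of these genes and so say nothing on its sign. They were averaging probe sets, leaving out dim genes, the robust prior with a trend, and the replicate block. Leaving out 1 array at a time, differences ran from -0.048 to 0.24 for Pdgfa, -0.79 to 0.13 for Pdgfb, 0.0087 to 0.29 for Pdgfc, -0.42 to 0.13 for Pdgfd, 0.09 to 0.51 for Pdgfra, 0.27 to 0.37 for Pdgfrb and -0.95 to 0.056 for Pdgfrl. Signs turned without the first wild-type array for Pdgfa (-0.048), Pdgfd (0.022) and Pdgfrl (0.056), without the third null array for Pdgfb (0.13) and without the first null array for Pdgfd (0.13). With the macrophage mean as a covariate Pdgfb had 0.78, Pdgfra 0.02 and Pdgfrb 0.44. The covariate leaves 3 residual degrees of freedom. The count of genes past the threshold, 0 with all arrays, ran from 0 to 34 when 1 array was left out: 34 without the second null and 1 without the first wild-type array, none of them a PDGF gene or a listed pathway gene. The cause was not tested. Of the pathway lists, the response genes moved beyond the spread between arrays in 1 of 7 alternatives, to 0.39. List medians turned sign without the first wild-type array for the ligand processing enzymes (-0.048), the response genes (-0.020) and the VEGF relatives (-0.0017), without the third null array for the VEGF relatives (-0.0021) and without the third wild-type array for the binding proteins (0.023). Same-numbered arrays of the 2 groups correlated at -0.14, 0.18 and -0.16 in their deviations from the group means. Differently numbered pairs ran from -0.18 to 0.26. The labels state no pairing, and correlations of so few arrays cannot tell whether same-numbered arrays share more than a number. With the replicate block the PDGF differences were as before, 0.32 for Pdgfrb with an adjusted p of 0.482, and 0 genes passed. Arrays have no depth, and 3 per group limit the precision: the median SE was 0.14, and SEs of the PDGF genes ran from 0.11 to 0.50.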
